A study of Mus musculus with 2 samples.

Results

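The miR-99/100, let-7 and miR-125 microRNAs lie together in 3 paralogous clusters of the mouse genome, and the 9 genes of these clusters are described here out of 2202 microRNA genes in the deposited tables. Their rule is a list of gene symbols. On chromosome 16 the cluster holds Mir99a, Mirlet7c-1 and Mir125b-2, on chromosome 17 Mir99b, Mirlet7e and Mir125a, and on chromosome 9 Mir100, Mirlet7a-2 and Mir125b-1. The order of the families, miR-99/100 first, let-7 next and miR-125 last, is the same in every cluster. They were measured by microRNA-seq, the sequencing of RNA under 30 bases, in total RNA from left cerebral cortex tissue of male mice, 8 to 10 months old, of strain 5xFAD/CAST. 5xFAD is a transgenic model of amyloid deposition whose transgenes are driven by the neuronal Thy1 promoter, CAST denotes an inbred line of wild origin, and whether the sampled animals carried the transgenes is not stated in the labels. The group has 2 libraries, biological replicates 1 and 2, made from different tissue samples with a common donor identifier, and the labels leave unsaid whether these are 2 animals, so their spread may be technical. There is no second group, so the comparisons are between clusters, between positions in the cluster and between the 2 libraries, and no test between conditions exists.

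A microRNA is cut from a hairpin precursor and guides Argonaute proteins to messenger RNAs that pair with its seed, bases 2 to 8, so that microRNAs with the same seed share many targets. let-7 and lin-4, the worm relative of miR-125, were found in Caenorhabditis elegans as timers of development. In mammals let-7 and miR-125 rise as neural progenitors differentiate, and LIN28 proteins block the maturation of let-7 precursors in immature cells. The miR-99/100 family is known to repress the growth kinase mTOR and the receptor IGF1R.

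The 5p microRNAs of the clusters are shown because they define the families and because some of them are made from more than 1 locus. Capitals mark the seed, and the sequences are those of RefSeq (GRCm38.p6, the build of mm10), 5′ to 3′. All 9 members were matched in that table, and let-7a-5p was matched by its name at Mirlet7a-1.
miR-99a-5p (Mir99a): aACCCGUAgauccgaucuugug
miR-99b-5p (Mir99b): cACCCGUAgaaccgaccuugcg
miR-100-5p (Mir100): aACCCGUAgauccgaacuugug
let-7c-5p (Mirlet7c-1): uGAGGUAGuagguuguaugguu
let-7e-5p (Mirlet7e): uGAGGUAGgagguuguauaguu
let-7a-5p (Mirlet7a-2): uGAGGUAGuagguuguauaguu
miR-125b-5p (Mir125b-1 and Mir125b-2): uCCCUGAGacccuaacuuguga
miR-125a-5p (Mir125a): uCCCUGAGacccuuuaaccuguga

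Within each family the seed was the same at all 3 loci, and the differences lay outside it. Counted from 1 at the 5′ end, miR-99a-5p differed from miR-100-5p by a single substitution, U16A. miR-99b-5p stood further off, with 4 differences from miR-99a-5p: A1C, U11A, U16C and U21C. Relative to let-7c-5p, let-7a-5p had G19A and let-7e-5p had U9G and G19A. miR-125a-5p, of 24 bases, shared its first 13 and last 5 bases with miR-125b-5p, of 22 bases. By the RefSeq sequences and names, 4 of the 9 genes make a 5p microRNA that another locus makes too. Mir125b-1 and Mir125b-2 make the same miR-125b-5p, and Mirlet7c-1 shares let-7c-5p with Mirlet7c-2 on chromosome 15. Mirlet7a-2 shares let-7a-5p with Mirlet7a-1 on chromosome 13, an assignment made by name, since let-7a-5p was listed at Mirlet7a-1 only. The 3p microRNAs of these 4 genes were listed at 1 locus each.
let-7c-1-3p: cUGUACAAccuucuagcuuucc
let-7a-2-3p: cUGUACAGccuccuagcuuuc
miR-125b-1-3p: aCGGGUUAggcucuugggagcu
miR-125b-2-3p: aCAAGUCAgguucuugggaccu
These are shown because, unlike the 5p arms, they tell the copies apart. The deposited counts are per precursor gene and do not separate the arms.

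The chromosome 17 cluster is compact and those on chromosomes 16 and 9 are spread out (mm10, GENCODE M21; all 9 genes are on the plus strand). Mir99b (chr17:17830188-17830257), Mirlet7e (chr17:17830352-17830444) and Mir125a (chr17:17830812-17830879) fit in 692 bases of Spaca6, a gene for a sperm membrane protein. Mir99b and Mirlet7e lie in its introns, and Mir125a overlaps an exon of at least 1 annotated Spaca6 transcript. On chromosome 16, Mir99a (chr16:77598936-77599000) and Mirlet7c-1 (chr16:77599657-77599750) are 656 bases apart, and Mir125b-2 (chr16:77646273-77646343) follows after a gap of 46522 bases. All 3 lie in introns of the long non-coding RNA Mir99ahg. On chromosome 9, Mir100 (chr9:41531425-41531504) and Mirlet7a-2 (chr9:41536716-41536811) are 5211 bases apart, and Mir125b-1 (chr9:41581926-41582002) follows after 45114 bases. These 3 lie in introns of the non-coding genes 3110039I08Rik and Gm49317, and Mir125b-1 also overlaps an exon of the non-coding gene Gm28119. On the opposite strand, Mirlet7e overlaps the predicted microRNA gene Gm25927, and Mir100 overlaps an exon of the lincRNA Gm48742.

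**Figure D1:**
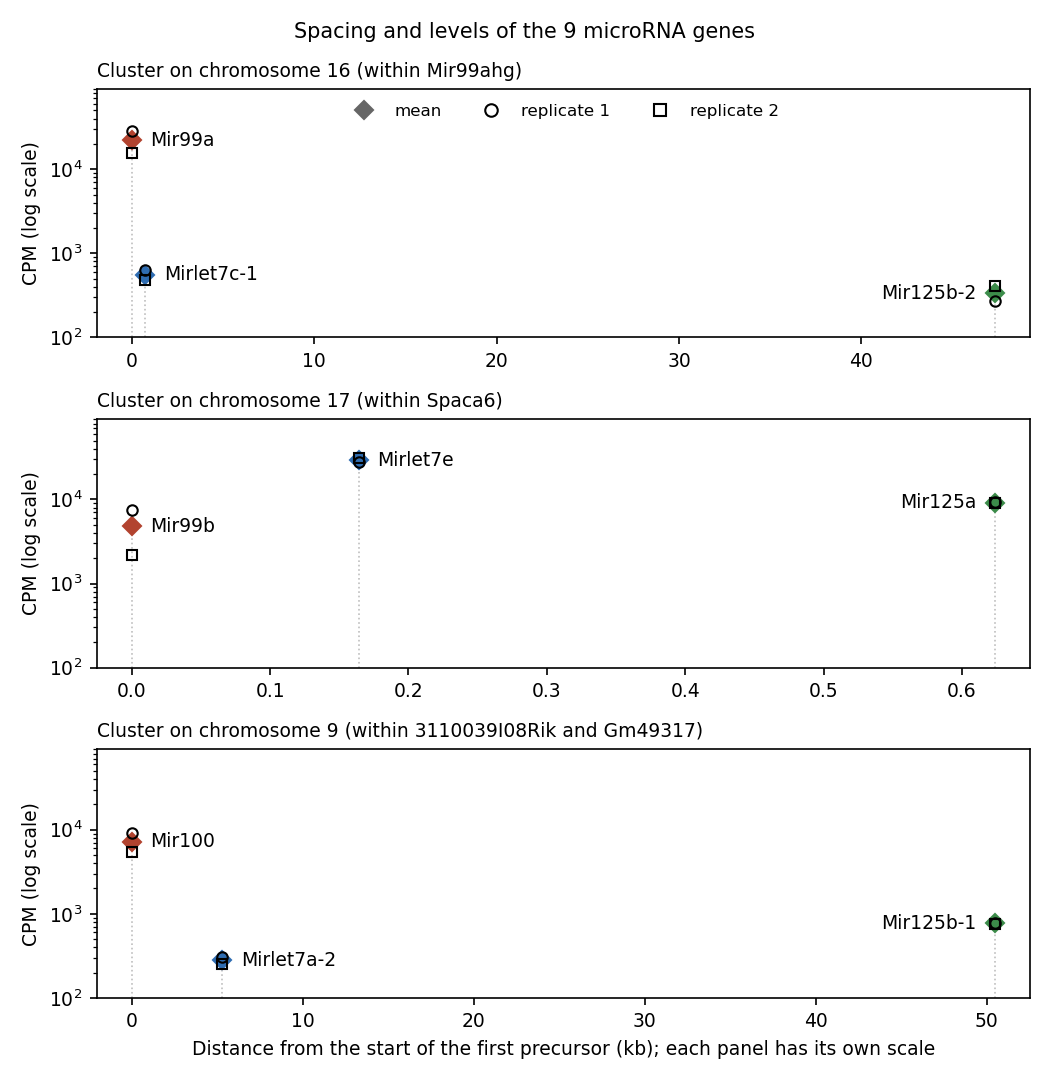
The 9 genes are placed by their distance in kilobases from the start of the first precursor (x axis, its own scale in each panel), with their level in CPM on a log scale (y axis); diamonds are the mean of 2 libraries, open circles replicate 1 and open squares replicate 2. The first gene is the highest of its cluster on chromosomes 16 and 9, and Mirlet7e, the middle gene, is the highest on chromosome 17. Reads mapping to several places are in no gene's count.

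Levels are sense-strand counts scaled to a total of 1000000 over all microRNA genes of a library (CPM). The gene counts came to 4929428 in replicate 1 and 4441328 in replicate 2, so that 1 read stands for 0.203 and 0.225 CPM. Another 38.5% of all reads in replicate 1 and 33.0% in replicate 2 mapped to several places and are in no gene's count. A gene with at least 10 reads in each library is called detected here. Of 12 brain microRNA genes used to check the tissue, 10 were detected. The sum of the list was 54945 CPM in replicate 1 and 65872 CPM in replicate 2, of which Mir132 gave 19682 and 44698 CPM. The 3 loci of miR-124, the best known neuronal microRNA, were near 0, with 3.48 CPM on average at the highest of them. Reads that match several of these loci equally may be in none of their counts, so these values are not the level of miR-124. Red blood cell genes summed to 602 and 88.5 CPM. Of 5 muscle genes, Mir206 was detected, with 35.5 CPM in replicate 1 and 45.9 CPM in replicate 2, and 4 were not. Those 4 are named as copies, Mir1a-1 and Mir1a-2, Mir133a-1 and Mir133a-2, and reads matching both copies equally may be in neither count. Their low counts thus do not show that muscle RNA was absent.

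The members, all 9 of them detected, made up 8.39% of the gene counts in replicate 1 and 6.51% in replicate 2 (mean 7.45 ± 1.33%, SD, n = 2). Members, which are 9 of the 417 detected genes, filled 2 of the 20 and 5 of the 50 highest places by mean CPM. The median member stood at 4811 CPM, against 94.7 CPM over all 417 detected genes. No member had a read on the opposite strand in either library.

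The chromosome 17 cluster gave the most counted reads in both libraries, with reads mapping to several places left out. It took 4.42% of the gene counts in replicate 1 and 4.20% in replicate 2 (exact 95% binomial intervals 4.40 to 4.44% and 4.19 to 4.22%). The chromosome 16 cluster took 2.95% (2.94 to 2.97%) in replicate 1 and 1.66% (1.65 to 1.67%) in replicate 2. The chromosome 9 cluster took 1.02% (1.01 to 1.02%) in replicate 1 and 0.641% (0.633 to 0.648%) in replicate 2. The order of the clusters was the same in both libraries, and their ranges did not overlap. Intervals cover counting error only, not the spread between libraries. Reads were not collapsed to molecules, so copies of the same molecule may make the intervals too narrow.

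The make-up of the clusters differed. On chromosome 16, Mir99a held 96.9% of the cluster's reads in replicate 1 and 94.7% in replicate 2. On chromosome 9, Mir100 held 89.3% and 84.2%. On chromosome 17, Mirlet7e held most reads, with 62.3% and 73.1%, ahead of Mir125a with 20.9% and 21.8%, while the miR-99/100 gene, Mir99b, held 16.9% and 5.14%. In these counts the miR-99/100 gene thus led on chromosomes 16 and 9 and came last on chromosome 17, in both libraries. The let-7 and miR-125 genes on chromosomes 16 and 9 make 5p microRNAs that another locus makes too, and those on chromosome 17 do not. Reads that match several loci equally may be in no count, and the part of this in the make-up was not tested.

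At the first position, Mir99a (ENSMUSG00000065530.1) was the highest of the 3 miR-99/100 genes, at 28643 CPM in replicate 1 and 15748 CPM in replicate 2 (22196 ± 9119 CPM), the 8th and 10th place among all genes. Mir100 (ENSMUSG00000093011.1) had 9069 and 5398 CPM (7233 ± 2596 CPM). Mir99b (ENSMUSG00000065396.1) had 7459 and 2162 CPM (4811 ± 3745 CPM). Mir99a was above both paralogues in both libraries, by 3.16-fold and 2.92-fold over Mir100 and by 3.84-fold and 7.28-fold over Mir99b. The gap of Mir99a to Mir100, 1.60 ± 0.08 as a difference of log2(CPM + 1), was far wider than its spread between the libraries. That of Mir100 to Mir99b, 0.80 ± 0.73, was about as wide as its spread, and although Mir100 was the higher in each library, the ranges of the 2 genes over the libraries overlapped. No other locus in the RefSeq table makes a microRNA with this seed.

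At the middle position, Mirlet7e (ENSMUSG00000105758.1) exceeded its paralogues by more than an order of magnitude. It had 27525 CPM in replicate 1 and 30721 CPM in replicate 2 (29123 ± 2260 CPM). Mirlet7c-1 (ENSMUSG00000065557.3) had 637 and 476 CPM (556 ± 113 CPM), and Mirlet7a-2 (ENSMUSG00000092770.1) had 307 and 250.2 CPM (278 ± 40.0 CPM). Mirlet7e was 43.2-fold and 64.4-fold above Mirlet7c-1, and 89.4-fold and 122-fold above Mirlet7a-2. Mirlet7e also made up 97.2 ± 0.710% of the counted let-7 reads of the 3 clusters. Both let-7c-5p and let-7a-5p are made at 2 loci each, and reads that match both loci equally may be in neither count. The values of Mirlet7c-1 and Mirlet7a-2 are therefore not the levels of let-7c and let-7a, and the folds and shares cover counted reads only. In the deposited counts that ignore the strand, Mirlet7e, which overlaps Gm25927, is listed at 0 in both libraries. Gm25927 itself had 0 sense reads. On the strand opposite to Gm25927, 135683 reads were listed in replicate 1 and 136443 in replicate 2, the same numbers as the sense counts of Mirlet7e. Of the counted let-7 reads over the 14 loci whose microRNA has this seed, the clusters held 9.55% and 9.85%. The other 11 loci, 9 of them detected, were led by Mirlet7g.

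At the last position, Mir125a (ENSMUSG00000065479.2) was the highest of the 3 miR-125 genes. It had 9224 CPM in replicate 1 and 9161 CPM in replicate 2 (9193 ± 44.2 CPM). Mir125b-1 (ENSMUSG00000093354.1) had 782 and 761 CPM (771 ± 15.0 CPM), and Mir125b-2 (ENSMUSG00000065472.1) had 268 and 403 CPM (336 ± 95.2 CPM). Mir125a was 11.8-fold and 12.0-fold above Mir125b-1. Above Mir125b-2 it was 34.2-fold and 22.7-fold. Mir125b-1 and Mir125b-2 make the same 5p microRNA, and reads that match both loci equally may be in neither count, so neither value is the level of miR-125b. The clusters held 98.7% and 99.1% of the reads over the 6 loci with the miR-125 seed, and of the other 3 only Mir351 on the X chromosome was detected (119 ± 29.1 CPM).

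The order of the 9 levels in replicate 1 was Mir99a, Mirlet7e, Mir125a, Mir100, Mir99b, Mir125b-1, Mirlet7c-1, Mirlet7a-2 and Mir125b-2. In replicate 2 it differed at 2 pairs of neighbours, with Mirlet7e above Mir99a and Mir125b-2 above Mirlet7a-2. By mean level, 3 pairs of neighbours overlapped in range over the libraries: Mirlet7e with Mir99a, Mir100 with Mir99b, and Mir125b-2 with Mirlet7a-2. A microRNA read spans the whole mature molecule, so CPM was not divided by length. Dividing by the annotated precursor length, 65 to 96 bases, shifted the log2 differences between members by at most 0.53 and turned the sign of none of 18, though it exchanged neighbours among the 3 lowest genes.

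**Figure D2:**
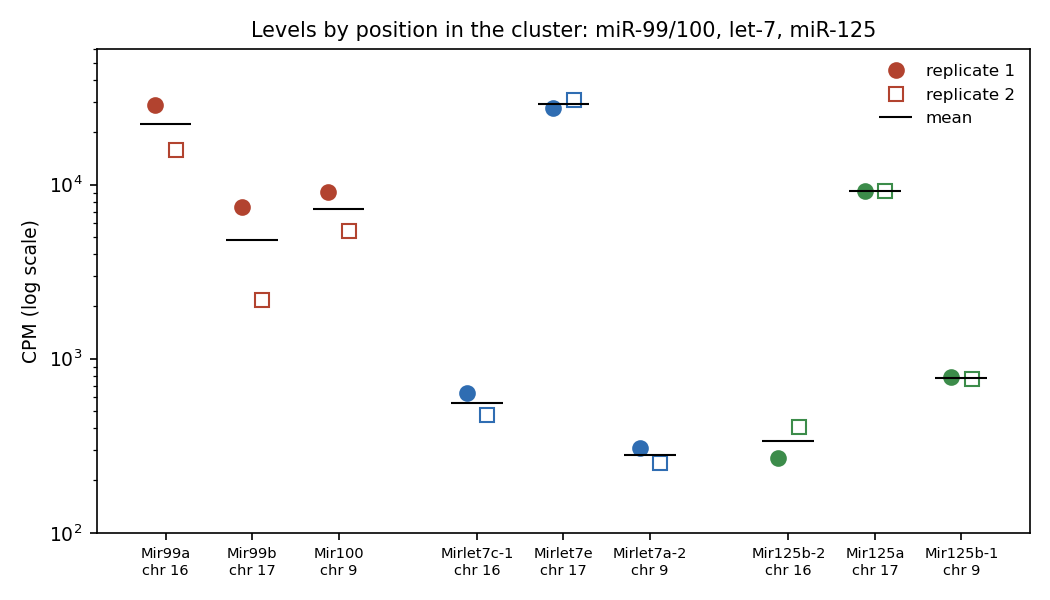
Level in CPM (log scale) of each member, grouped by position in the cluster, with filled circles for replicate 1, open squares for replicate 2 and a bar at the mean. The 3 miR-99/100 genes all stand lower in replicate 2, and Mirlet7e and Mir125a stand far above their paralogues in both libraries. Reads mapping to several places are in no gene's count.

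Members split by the sequence they share with other loci. The longest run of bases that a precursor shared with another annotated microRNA gene, on either strand, was 23 bases for Mirlet7c-1 and Mirlet7a-2 and 24 bases for Mir125b-1 and Mir125b-2. It was 11 bases for Mir99b, 14 for Mir125a, 16 for Mir99a and Mir100 and 17 for Mirlet7e, which shares them with Mir7k. The 4 genes sharing at least 20 bases lay between 268 and 782 CPM in replicate 1 and between 250.2 and 761 CPM in replicate 2. The 5 genes without such a run lay between 7459 and 28643 CPM in replicate 1 and between 2162 and 30721 CPM in replicate 2. The ranges did not overlap in either library. Over all detected genes the same split was not seen in the medians, with 122 CPM for the 86 genes that share 20 bases and 90.5 CPM for the 331 that do not. These medians leave out genes with fewer than 10 reads in either library, and a shared run may lie outside the mature microRNA. Reads mapping to several places are counted apart from the genes, and the part of this in the low values of the 4 genes was not tested.

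**Figure D3:**
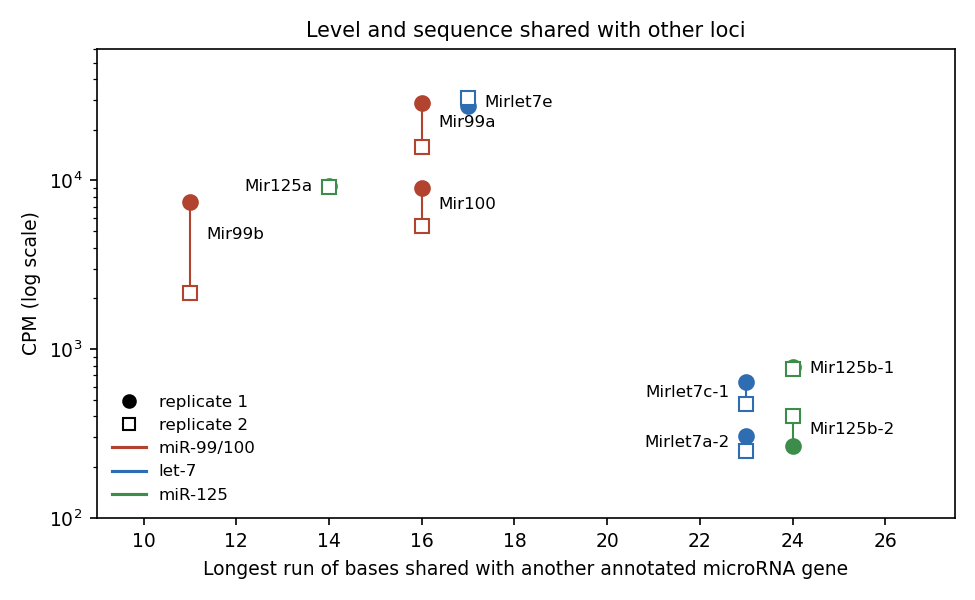
Level in CPM (log scale) of each member against the longest run of bases its precursor shares with another annotated microRNA gene, with filled circles for replicate 1 and open squares for replicate 2, joined by a line. The 4 genes at 23 and 24 bases lie below 1000 CPM and the 5 genes at 11 to 17 bases above it.

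The libraries differed most at the first position. Between replicate 2 and replicate 1, Mir99b had a log2 ratio of -1.79 (exact 95% interval -1.82 to -1.75), with 9604 and 36768 reads. Mir99a had -0.86 (-0.88 to -0.85), with 69940 and 141196 reads. Mir100 had -0.75 (-0.77 to -0.73), with 23973 and 44706 reads. All 3 were lower in replicate 2, and their summed share was 2.33% in replicate 2 and 4.52% in replicate 1.

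The other positions differed less. The let-7 genes had log2 ratios of 0.16 (Mirlet7e), -0.29 (Mirlet7a-2) and -0.42 (Mirlet7c-1). For the miR-125 genes they were 0.59 (Mir125b-2), -0.01 (Mir125a) and -0.04 (Mir125b-1). Every miR-99/100 ratio was below every one of these 6, a pattern noticed after the values were seen. The summed share of the let-7 genes was 3.14% in replicate 2 and 2.85% in replicate 1, and that of the miR-125 genes was 1.03% in both. The intervals of Mir125a and Mir125b-1 included 0 and those of the other 7 did not. These intervals cover counting error only, and at such read numbers they exclude 0 even for a ratio as small as 0.16 (Mirlet7e). The same count over all detected genes was not made, so no conclusion is drawn from it.

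Levels relative to neighbours in the same cluster therefore differed between the libraries. On chromosome 17, Mirlet7e stood 14.2-fold above Mir99b in replicate 2 and 3.69-fold in replicate 1, and Mir125a stood 4.24-fold above it in replicate 2 and 1.24-fold in replicate 1, while Mirlet7e to Mir125a kept nearly the same ratio, 3.35-fold and 2.98-fold. On chromosome 9, Mir100 was 7.09-fold above Mir125b-1 in replicate 2 and 11.6-fold in replicate 1. On chromosome 16, Mir99a was 39.0-fold above Mir125b-2 in replicate 2 and 106-fold in replicate 1. Such ratios within a library do not depend on how the libraries are scaled.

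Set beside all genes, the differences between the libraries were moderate. At least 2-fold apart were 1 of 9 members, Mir99b, and 49 of 417 detected genes (11.8%). Lower in replicate 2 by at least 2-fold were the same 1 member and 21 of 417 genes (5.04%). The median size of the log2 ratio was 0.42 over the members and 0.37 over all detected genes. A ratio as low as that of Mir99b or lower was found in 5 of 417 detected genes (1.20%), itself included. For Mir99a this was 36 genes (8.63%) and for Mir100 it was 44 (10.6%).

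Several markers moved between the libraries as well. Of the 3 red blood cell genes, Mir451a had 52.2 CPM in replicate 2 and 529 CPM in replicate 1, Mir144 had 6.30 and 57.8 CPM, and Mir486 went the other way with 29.9 and 15.0 CPM. The sum of the 3 choroid plexus genes was 749 CPM in replicate 2, against 1692 CPM in replicate 1, and each of them was lower in replicate 2. The 2 oligodendrocyte genes summed to 5618 and 3387 CPM, and the 3 vessel genes to 21812 and 20418 CPM. Of the 11 brain genes with reads in both libraries, 9 were lower in replicate 2, among them Mir128-1 and Mir137 with log2 ratios of -0.86 and -0.96. The 9 include Mir124a-2, below the detection limit with 7 reads in replicate 2 and 9 in replicate 1. The other 2 were higher, among them Mir132, whose transcription follows neuronal activity, with 1.18. As a rough background, 220 of all 417 detected genes (52.8%) had a ratio at or below that of Mir125a, -0.01. This cut is slightly stricter than being lower in replicate 2, and Mir124a-2 is not among the 417. Without Mir132 the brain list summed to 21175 CPM in replicate 2, against 35264 CPM in replicate 1. The part of these in the miR-99/100 ratios was not tested. In bulk tissue, fewer cells of a type and less RNA per cell cannot be told apart.

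**Figure D4:**
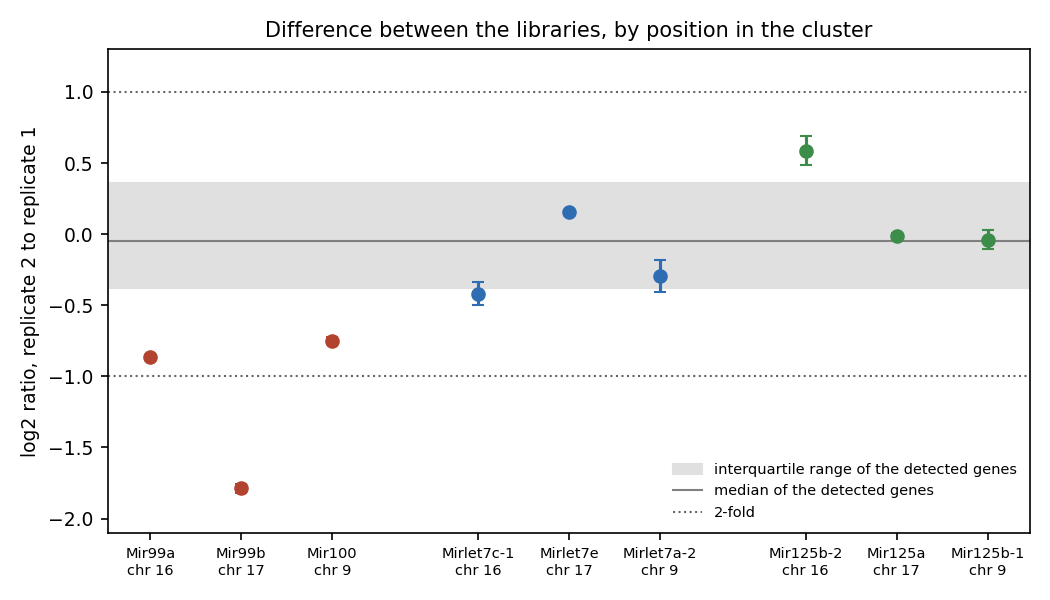
Log2 ratio of replicate 2 to replicate 1 (y axis) for each member by position in the cluster, with exact 95% intervals for counting error as bars, most of them shorter than the point. The grey band is the interquartile range of the 417 detected genes, the line is their median and dotted lines mark 2-fold; the 3 miR-99/100 genes and, by a small margin, Mirlet7c-1 lie below the band, Mir125b-2 lies above it, and Mir99b lies below the 2-fold line.

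The miR-10 genes, Mir10a and Mir10b of the Hox clusters, are relatives of miR-99/100 with a different seed, as miR-10a-5p shows.
miR-10a-5p: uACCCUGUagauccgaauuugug
They were low, at 55.7 ± 20.8 CPM for Mir10a and 23.0 ± 3.50 CPM for Mir10b. Their log2 ratios of replicate 2 to replicate 1 were -0.78 and 0.31, on either side of 0.

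For the 5 members of at least 1000 CPM, the gene outside the clusters with the nearest log2(CPM + 1) in both libraries was sought, a likeness over 2 values only. For Mir99a it was Mir23b, at a distance of 0.21, with 14908 CPM in replicate 2 and 25038 CPM in replicate 1. For Mir125a it was Mir330, at 0.04, with 9019 ± 73.7 CPM. For Mir100 it was Mir324 at 0.44, for Mirlet7e it was Mir127 at 0.50, and for Mir99b it was Mir30e at 0.80. Mir99b thus had no gene as near to it as the other 4 had.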

How the data were processed

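The authors deposited, for each of the 2 libraries, a table of raw read counts for 2202 microRNA genes, made against mm10 and GENCODE M21 per the file notes; the aligner and counter were not given in the sources used here. Its 3 count columns were read as unstranded, sense and antisense, an inference from the layout, and its 4 lines of unassigned totals stayed out of the library sizes. Unmapped reads were 25.6% in replicate 1 and 34.3% in replicate 2, and 5.82% and 6.54% mapped outside microRNA genes. All 2202 identifiers were found in GENCODE M21.

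CPM was computed from the sense counts. Log2 levels used a pseudocount of 1 CPM. A count of 0 allows up to 3 counts, or 0.609 and 0.675 CPM in replicates 1 and 2. Intervals are exact binomial intervals (95%, scipy 1.17.1, Python 3.11.15). They were run on counts simulated with counting error only, which cannot show how they hold for the spread between real libraries. Shared sequence was searched among annotated microRNA transcripts only, leaving out genes that overlap the member itself (Gm25927 at Mirlet7e). Values with ± are mean and SD. Alternatives used edgeR 4.0.16 (TMM) and DESeq2 1.42.0 (size factors), for scaling only. The named genes are the 9 members, loci with the same seed or mature sequence, Mir10a and Mir10b, marker genes and the nearest gene in level. Members and lists were chosen with earlier results of these data known.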

Additional observations from a re-analysis of the deposited data

How the results depend on the processing

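Counting without regard to strand left Mirlet7e at 0 and made the total of gene counts 7.09% lower in replicate 1 and 7.18% lower in replicate 2. The sense counts of Mirlet7e recur as the antisense counts of the overlapping Gm25927, so this 0 is not taken as its level. All 9 members then took 4.89% of the reads, the chromosome 17 cluster 1.51%, the let-7 position 0.0899% and the miR-125 position, whose counts are the same in both columns, 1.11%. The chromosome 16 cluster, at 2.49%, then stood above the chromosome 17 cluster. The log2 differences of Mirlet7e turned to -9.21 against Mirlet7c-1, -8.23 against Mirlet7a-2, -12.08 against Mir99b and -13.27 against Mir125a, values set by the pseudocount since Mirlet7e is listed at 0. Per kilobase of precursor, log2 differences became 1.90 (Mir99a to Mir100), 3.75 (Mir125a to Mir125b-1), 5.80 (Mir99a to Mirlet7c-1), 1.21 (Mirlet7e to Mir125a) and 1.80 (Mir125b-1 to Mirlet7a-2). The share of genes at least 2-fold apart became 24.0% of 620 genes with at least 1 count in each library and 6.95% with a pseudocount of 10 CPM. Under TMM factors the ratios between the libraries rose by a common shift, with Mir99a at -0.82, Mir100 at -0.70 and Mir99b at -1.74, and Mir99b was the 1 member past 2-fold under every scaling tried, as in the counts without regard to strand and with the larger pseudocount. Leaving out replicate 1 or replicate 2 turned the sign of none of the 18 differences. No paired analysis was possible because the labels give a single group. Depth did not limit the members, whose lowest count was 1111 reads, but the number of libraries, 2, does.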
